A study of Homo sapiens with 18 samples.

Results

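The response to the synthetic androgen R1881 was followed in LNCaP cells that carried a short hairpin RNA against HOXB13 and an inducible rescue with the HOXB13 3A mutant. The libraries were chosen by the rescue state and treatment in their titles, which gave 6 of the 18 libraries of the series, 3 with R1881 and 3 with vehicle. LNCaP is an established human prostate cancer line that responds to androgen. HOXB13 3A has threonine 8, threonine 41 and serine 31 changed to alanine. All 18 libraries share the hairpin and the inducible system, and the other 12 carried empty vector (EV) or wild-type HOXB13 (WT) in place of 3A, again 3 with vehicle and 3 with R1881. Cells of every group spent 48 h in medium with 2% charcoal-stripped serum, from which steroids have been removed, and were then given 0.1% ethanol (vehicle) or 10 nM R1881 in fresh medium of the same kind for 24 h. The labels do not name the inducing agent, the promoter of the rescue or whether the line is a clone. Nor do they state that the libraries of a group are separate cultures, and p-values then cover no more than the spread from library to library, which can be technical.

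R1881 stands in for the androgens of the body, steroid hormones that raise transcription of some genes of prostate cells and lower that of others. HOXB13 is a homeobox transcription factor of the prostate lineage that binds DNA at many androgen-responsive genes. Luminal prostate cells are secretory: their proteins are made on the endoplasmic reticulum (ER), folded and glycosylated there and in the Golgi, and carried outward in vesicles, and androgen is the hormone that maintains this work.

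Total counts in the 6 libraries ran from 23488198 to 30611980, and 21253 to 23377 genes had at least 1 count. Transcripts of the mitochondrial genome made up 3.80% to 4.66% of counts in vehicle and 3.06% to 5.14% with R1881. Pairs of libraries of a group gave a chi-square over its degrees of freedom of 9.09 to 27.9, so none of them was a duplicate of another. Of 16 luminal prostate markers, all tested, 10 rose and 3 fell. Of 27 markers of basal, stromal, endothelial, immune and red blood cells, 12 had 0 counts in all 6 libraries, among them TP63, PECAM1, CD3E and HBB, and the highest level among the 21 that were too low to test was 0.673 CPM. The summed level of the 6 markers that were tested was 34.3 to 38.8 CPM in vehicle and 19.3 to 27.8 CPM with R1881, most of it COL1A1 and VWF. KRT14 was called higher, at no more than 1.01 CPM, and COL3A1 and VWF were called lower. The part of these markers in the results below was not tested. In bulk RNA, fewer cells of a kind and less RNA per cell cannot be told apart.

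Levels below are counts divided by the scaled library size and given as CPM, listed in the order of the library numbers, and are not per gene length. Changes are log2 fold changes ± standard error for R1881 against vehicle, and a gene is called higher or lower at an edgeR quasi-likelihood p under 0.05 after Benjamini-Hochberg adjustment over all genes tested. The standard error, also that of differences between rescue states, was derived from the edgeR test. It is the size of the log2 change over the square root of the F statistic, and at few counts only a rough guide. HOXB13 itself (chromosome 17, 48724763 to 48729178, minus strand, hg38) stood at 668, 869.6 and 739 CPM in vehicle and 578, 506 and 436 CPM with R1881. The R1881 libraries all lay below the vehicle libraries, and the gene fell (log2 fold change -0.58 ± 0.11, edgeR adjusted p = 0.000361). Counts per gene do not separate the RNA that the hairpin targets from the rescue RNA, so this value checks neither the knockdown nor the rescue.

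R1881 changed 4202 of the 17162 genes tested, 24.5%. Of these, 2130 (12.4%) rose and 2072 (12.1%) fell, and the median log2 fold change over all genes tested was -0.01. A change of at least 2-fold was found for 648 genes that rose (3.78%) and 930 that fell (5.42%). In 6181 genes (36%) the 3 R1881 libraries did not overlap the 3 vehicle libraries. For most genes named below this was a condition of their selection, so where it is mentioned it is no separate support. Protein-coding genes were called higher in 1911 and lower in 1735 of 13175. Long intergenic noncoding RNAs were called higher in 56 and lower in 108 of 999 with a median of -0.18, and antisense genes in 67 and 92 of 1152 with a median of -0.13.

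**Figure D1:**
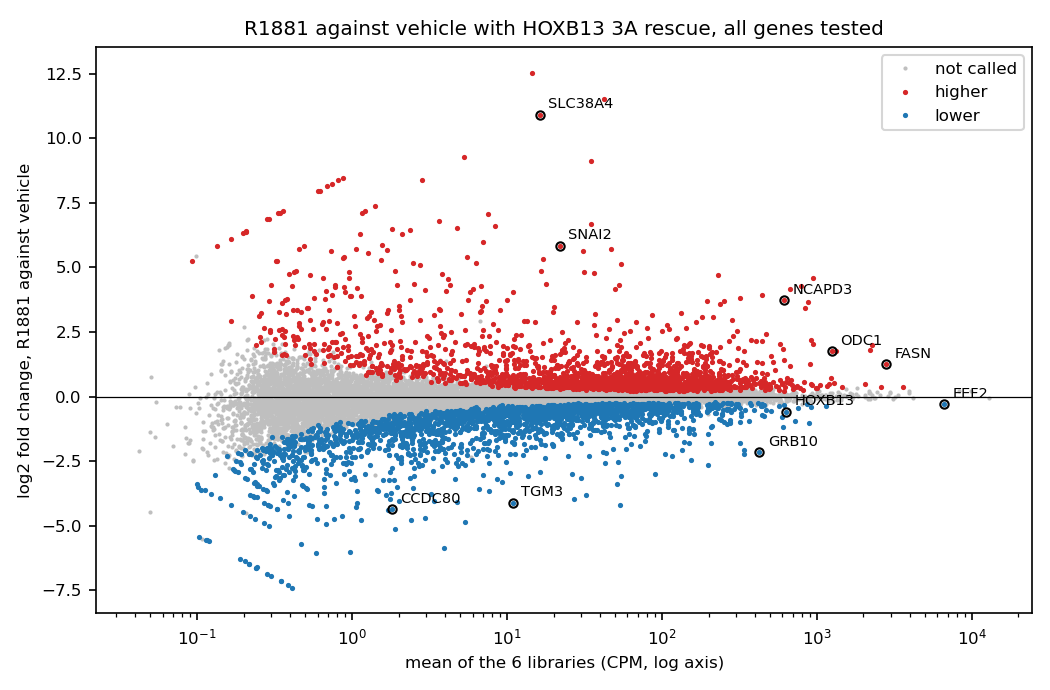
Log2 fold change for R1881 against vehicle with HOXB13 3A rescue (y axis) against the mean level of the 6 libraries in CPM (x axis, log scale) for the 17162 genes tested. Red points are the 2130 genes called higher, blue points the 2072 called lower and grey points the rest, and circles mark genes named in the text.

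The largest rises among protein-coding genes outside the classic androgen lists were of genes that were silent or nearly so in vehicle. SLC38A4, a sodium-coupled amino acid transporter (chromosome 12, 46764761 to 46832408, minus strand), had 1 count in the vehicle group and 2557 with R1881. Its levels were 0, 0.0374 and 0 CPM in vehicle and 35.8, 30.8 and 31.1 CPM with R1881, a ratio of 2710 with an exact 95% counting interval of 486 to 107000. DOCK8, an activator of the GTPase CDC42, went from 1 to 443 counts, a ratio of 469 (83.8 to 18600). For SLC26A3, a chloride and bicarbonate exchanger, the counts were 1 and 220, a ratio of 233 (41.4 to 9250), and for TGM2, tissue transglutaminase, 1 and 199, a ratio of 211 (37.4 to 8370). Lack of overlap between treatments was a condition for choosing these genes. The intervals are wide because they rest on 1 count and cover counting error only.

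Other strong rises started from more vehicle counts. Some of these genes were still near silent: PGC had 9 counts in the vehicle group, NBL1 6, ALPK2 5 and ELOVL2 4. SNAI2, a zinc finger repressor known from epithelial to mesenchymal transition, had 0.88, 0.524 and 0.831 CPM in vehicle and 53.7, 41.01 and 35.4 CPM with R1881. Each R1881 library held far more SNAI2 than any vehicle library (log2 fold change 5.84 ± 0.27, edgeR adjusted p = 5.94e-13). TMCC3, a coiled-coil protein of the ER membrane, had 1.01, 0.823 and 0.673 CPM in vehicle and 39.2, 32.1 and 29.5 CPM with R1881, again with no overlap (log2 fold change 5.31 ± 0.23, edgeR adjusted p = 2.12e-13). PGC, the digestive protease precursor progastricsin, rose by 7.06 ± 0.40 and ELOVL2, which elongates polyunsaturated fatty acids, by 5.88 ± 0.64 on the log2 scale. The tubulin genes TUBA3D (5.62 ± 0.30) and TUBA3E (5.38 ± 0.37) and NBL1, a secreted antagonist of bone morphogenetic proteins (5.29 ± 0.59), rose by similar amounts, as did the kinase gene ALPK2 (5.68 ± 0.60). These 4 are uncertain as single genes, since 42.97% and 39.24% of the sequence of the 2 tubulins occurs in other genes and 17.8% and 23.59% of the exon bases of NBL1 and ALPK2 overlap other genes.

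Among protein-coding genes outside the classic androgen lists, the strongest falls were mostly of genes at a few CPM in vehicle. CXorf36, a predicted secreted protein, had 3.11, 3.48 and 4.43 CPM in vehicle and 0.133, 0.104 and 0.0722 CPM with R1881. The groups were far apart and the gene fell (log2 fold change -5.11 ± 0.39, edgeR adjusted p = 1.37e-09). VWA2, an extracellular matrix protein, fell by 4.70 and ABCG2, a pump that exports drugs and urate, by 4.39 on the log2 scale. CCDC80, a matrix protein, had 3.36, 2.99 and 3.999 CPM in vehicle and 0.177, 0.174 and 0.144 CPM with R1881, and FYN, a SRC-family kinase, had 2.89, 1.53 and 1.66 CPM in vehicle and 0.0886, 0.139 and 0.0722 CPM with R1881. Both were lower in every R1881 library, with log2 fold changes of -4.35 ± 0.30 and -4.27 ± 0.42. At higher levels, TGM3, an epidermal transglutaminase, had 13.7, 21.7 and 26.3 CPM in vehicle and 0.531, 1.25 and 1.70 CPM with R1881 (log2 fold change -4.11 ± 0.38, edgeR adjusted p = 3.1e-08). LRRC31 (-4.07 ± 0.28), the potassium channel KCNU1 (-4.04 ± 0.40), the adhesion protein AMIGO2 (-4.03 ± 0.47), CCDC83 (-4.12 ± 0.57), the short-chain fatty acid receptor FFAR2 (-3.98 ± 0.32) and the disaccharidase SI (-3.83 ± 0.44) completed the 12 largest falls outside those lists.

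Counted in CPM gained or lost, the response looked different. Outside the classic androgen lists FASN, which makes palmitate, gained most, at 1111, 1664 and 2220.00 CPM in vehicle and 2470.1, 5776 and 3624 CPM with R1881. Its R1881 libraries all exceeded the vehicle libraries but varied widely among themselves (log2 fold change 1.25 ± 0.26, edgeR adjusted p = 0.000849). KRT8, a keratin of luminal cells, had 569, 637 and 616 CPM in vehicle and 2340.3, 1954 and 1880.5 CPM with R1881 (log2 fold change 1.76 ± 0.12, edgeR adjusted p = 1.46e-10), and ABHD2, a lipid hydrolase, had 355, 367 and 399 CPM in vehicle and 1504, 1774 and 1249 CPM with R1881 (log2 fold change 2.01 ± 0.19, edgeR adjusted p = 4.6e-08). NCAPD3, a condensin II subunit (3.73 ± 0.17), and ACTB, cytoplasmic actin (0.35 ± 0.09), rose too. The largest loss outside those lists was of EEF2, the ribosomal translocation factor, at 6753, 7633 and 7466 CPM in vehicle and 5742, 6304 and 5806 CPM with R1881. The groups did not overlap, but the fall of -0.29 ± 0.08 was called in only 4 of the 6 fits that left out 1 library. ST3GAL1, which caps O-glycans with sialic acid (-1.02 ± 0.13), GRB10, an adaptor that restrains insulin and IGF receptors (-2.14 ± 0.10), the adhesion receptor ADGRG6 (-1.17 ± 0.14), FOLH1, the prostate-specific membrane antigen (-0.94 ± 0.09), and TP53INP1, a p53-induced regulator of cell death (-2.07 ± 0.13), fell. FOLH1 shares 35.29% and KRT8 16.34% of its sequence with other genes.

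Among long noncoding RNAs, AC078864.1 had 0, 0.15 and 0 CPM in vehicle and 4.16, 4.44 and 3.79 CPM with R1881 and no overlap (log2 fold change 6.29 ± 0.63, edgeR adjusted p = 1.02e-07). AQP4-AS1 went from 3 counts to 169, a ratio of 59.7 (20.1 to 292). POTEH-AS1, AL512624.2 and AL929601.3 also rose, but over 80% of the sequence of each occurs in other genes (84.36%, 84.88% and 88.8%), so reads could not be placed on one of them. The falls were of AC073174.1 (-4.77 ± 0.52), AC100768.2 (-3.22 ± 0.49), AC069228.1 (-3.07 ± 0.25), AC109466.1 (-2.76 ± 0.42) and AP000844.2 (-2.70 ± 0.26). AC069228.1 was the most abundant of these in CPM, at 22.7, 23.3 and 27.2 CPM in vehicle and 1.68, 3.06 and 3.86 CPM with R1881.

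Described by family, lists of the ER and of ER to Golgi transport held many rises and no falls. The 42 families shown are read against the 12.4% of all genes tested that rose and the 12.1% that fell. The families hold mostly protein-coding genes, which were called somewhat more often, with 1911 higher and 1735 lower of 13175. In 3 families that work in the ER or between the ER and the Golgi, most members tested rose and 0 fell, and their medians were 0.36 to 0.51 against -0.01 over all genes tested. Families of adhesion molecules, Wnt signalling and nuclear receptors had medians below 0.

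**Figure D2:**
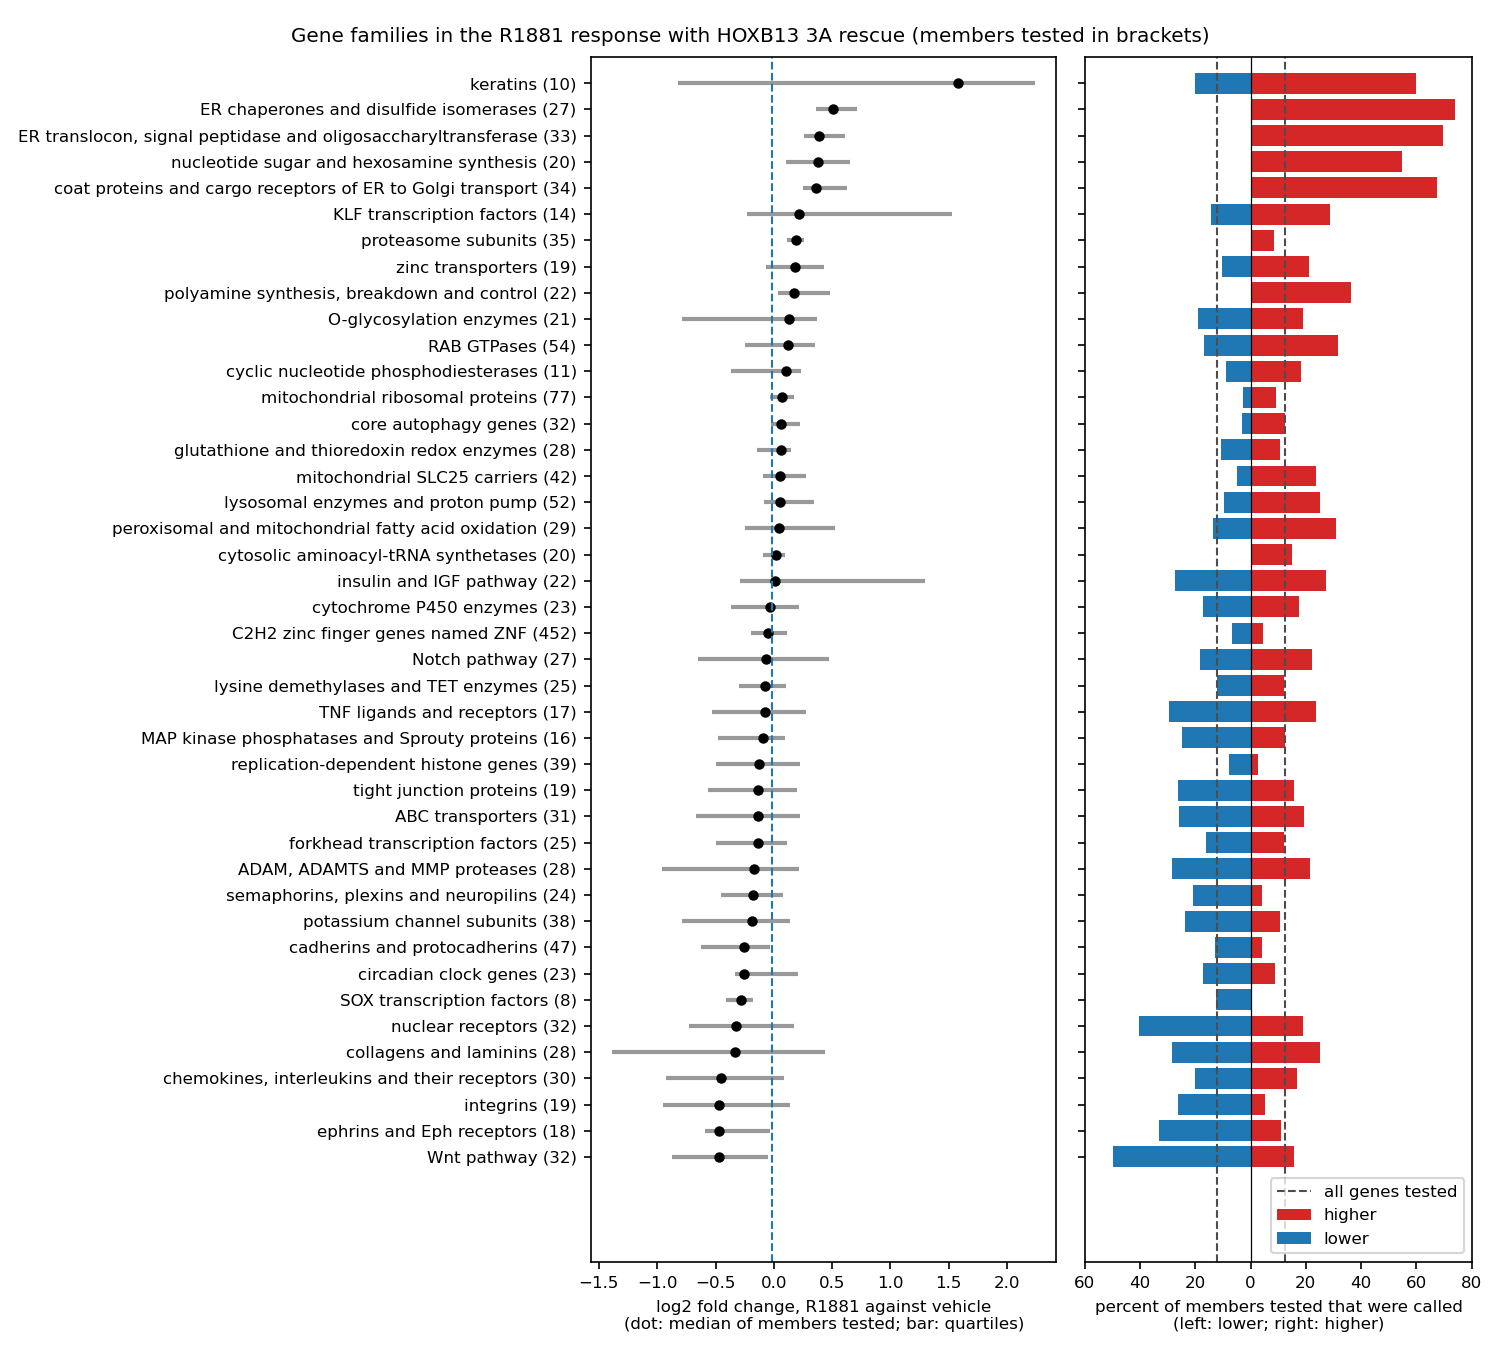
Left, the median (dot) and quartiles (bar) of the log2 fold change of the tested members of 42 gene families, with the median of all genes tested as a dashed line. Right, the percentage of tested members called higher (red) and lower (blue), with the 12.4% and 12.1% of all genes tested as dashed lines. Keratins and the ER families lie at the top, and the Wnt, Eph and integrin families at the bottom.

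ER chaperones bind new chains while they fold, and disulfide isomerases form their cysteine bridges. Of 27 such genes tested, 20 rose and 0 fell, with a median of 0.51. 1 was called lower without R1881 library 1. HSPA5, the chaperone BiP, had 1126, 920.3 and 961 CPM in vehicle and 1510.5, 1359 and 1335 CPM with R1881, and HSP90B1, the HSP90 of the ER, had 1063, 836 and 891 CPM in vehicle and 1533, 1449 and 1616 CPM with R1881. In both, each R1881 library exceeded each vehicle library (log2 fold change 0.48 ± 0.09, edgeR adjusted p = 0.000318 for HSPA5; log2 fold change 0.72 ± 0.09, edgeR adjusted p = 3.3e-06 for HSP90B1). DNAJB9, a co-chaperone of BiP, had the largest rise of the family, with 26.9, 20.96 and 18.8 CPM in vehicle and 70.3, 53.8 and 61.4 CPM with R1881 (log2 fold change 1.47 ± 0.12, edgeR adjusted p = 4.95e-09). The oxidase ERO1A, which supplies disulfide bonds, had 45.8, 41.3 and 44.2 CPM in vehicle and 78.96, 102 and 103 CPM with R1881 (log2 fold change 1.11 ± 0.12, edgeR adjusted p = 3.22e-07), and the isomerase PDIA5 rose by 1.11. CALR, a lectin chaperone, rose by less, with 1225, 1277 and 1313 CPM in vehicle and 1691, 1601 and 1618 CPM with R1881 (log2 fold change 0.36 ± 0.08, edgeR adjusted p = 0.0019). Its partner CANX stood at 815, 691 and 719 CPM in vehicle and 851, 916 and 885 CPM with R1881, without overlap, and missed the threshold (log2 fold change 0.25 ± 0.09, edgeR adjusted p = 0.0521), which it passed with DESeq2 and with a filter of 1 CPM in 3 libraries. HSPA5, HSP90B1, CALR, CANX, CRELD2, PDIA6, FICD, SERP1 and XBP1 are outside the naming rule and were chosen after their values were seen.

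The ER stress response element, written as CCAAT and CCACG with 9 bases of any kind between them, is a known promoter element of ER chaperone genes. It was searched on both strands in RefSeq promoter windows of GRCh38.p14, which run from 250 bases before to 50 bases after a start site. The windows matched 11688 of the genes tested and numbered 16774, of which 19 (0.113%) held the element. It was present in 10 of 2407 windows of genes that rose (0.415%) and in 1 of 2333 windows of genes that fell (0.0429%). In the ER chaperone family, 9 of 35 windows (25.7%) held it, belonging to 7 of 25 genes. CANX counts there with several overlapping windows that hold the same site, so the share of windows overstates the number of sites. Among members of that family that rose, 5 of 21 windows (23.8%) held it, no larger a share than in the whole family. The stretches below show the sites of 6 of the 7 family genes and of FICD, SERP1 and XBP1 from outside that family. They are read on the strand of the gene, with the 19 bases of each match in capitals. The family gene not shown, ERO1B, was not called (log2 fold change 0.37 ± 0.18, edgeR adjusted p = 0.159) and is named with its values known. Where the capitals begin with CGTGG, the element lies on the opposite strand.

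HSPA5 (chr9:125241361-125241439, minus strand): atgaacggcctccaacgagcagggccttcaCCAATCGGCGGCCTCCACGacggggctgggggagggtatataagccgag

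HSP90B1 (chr12:103930186-103930369, plus strand): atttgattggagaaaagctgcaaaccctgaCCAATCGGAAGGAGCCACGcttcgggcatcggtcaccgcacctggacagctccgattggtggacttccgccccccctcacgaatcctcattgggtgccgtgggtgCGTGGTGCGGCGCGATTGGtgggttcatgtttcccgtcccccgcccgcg

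CALR (chr19:12938359-12938432, plus strand): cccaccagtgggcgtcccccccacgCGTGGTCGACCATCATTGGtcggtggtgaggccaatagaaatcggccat

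CRELD2 (chr22:49918524-49918602, plus strand): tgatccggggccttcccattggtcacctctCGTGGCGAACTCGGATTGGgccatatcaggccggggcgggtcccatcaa

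PDIA6 (chr2:10812823-10812901, minus strand): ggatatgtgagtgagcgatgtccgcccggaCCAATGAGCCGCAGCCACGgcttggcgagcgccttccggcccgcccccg

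FICD (chr12:108515093-108515171, plus strand): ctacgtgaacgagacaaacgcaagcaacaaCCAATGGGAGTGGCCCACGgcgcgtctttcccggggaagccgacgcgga

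SERP1 (chr3:150546680-150546746, minus strand): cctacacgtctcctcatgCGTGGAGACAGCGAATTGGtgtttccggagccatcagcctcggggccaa

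CANX (chr5:179698748-179698826, plus strand): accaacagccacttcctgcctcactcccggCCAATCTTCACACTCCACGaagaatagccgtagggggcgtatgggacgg

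XBP1 (chr22:28800573-28800651, minus strand): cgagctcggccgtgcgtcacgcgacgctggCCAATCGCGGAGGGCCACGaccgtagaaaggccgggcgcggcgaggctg

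The HSP90B1 stretch holds 2 matches, that of CRELD2 is shared with ALG12 on the other strand, a mannosyltransferase gene, and that of SERP1 with EIF2A, a translation initiation factor gene. ALG12 rose (0.50 ± 0.11) and EIF2A was not called (log2 fold change 0.07 ± 0.11, edgeR adjusted p = 0.712), both named after their values were seen. Of all 17 genes tested with the element, 10 rose, 1 fell and 6 were not called. Of those shown, CRELD2, a secreted ER stress protein (0.76 ± 0.12), PDIA6, a disulfide isomerase (0.48 ± 0.11), FICD, which modifies BiP (1.08 ± 0.14), and SERP1, a translocon-associated protein (0.66 ± 0.09), rose with HSPA5, HSP90B1 and CALR. PDIA6 shares 25.19% of its exon bases with other genes. XBP1, the transcription factor of the same stress response, carries the element and had 307, 306 and 311 CPM in vehicle and 244, 239 and 276 CPM with R1881. It was called lower (log2 fold change -0.28 ± 0.09, edgeR adjusted p = 0.0312), a call kept in 1 of the 6 fits that left out a library. A match of letters describes the window and shows no binding. A 14-base form of the androgen response element, AGAACA followed after 3 bases of any kind by TGTTC, occurred in 0 of the 16774 windows. Only exact matches in these short windows were counted, so this does not show that the genes lack such elements. The 6-base part AGAACA occurred in 9.10% of windows of genes that rose, 11.3% of those of genes that fell and 9.89% of all.

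Entry into the ER and exit from it showed the same direction. Of 33 genes of the translocon, signal peptidase and oligosaccharyltransferase, 23 rose and 0 fell, with a median of 0.38. SPCS3, a signal peptidase subunit, had 96.3, 76.3 and 77.6 CPM in vehicle and 168, 160.5 and 158 CPM with R1881 (log2 fold change 0.96 ± 0.10, edgeR adjusted p = 1.85e-07), and SSR1, a subunit of the translocon-associated complex, had 214, 181 and 181 CPM in vehicle and 348, 312 and 356 CPM with R1881 (log2 fold change 0.82 ± 0.09, edgeR adjusted p = 7.6e-07). In both genes the groups were separate. SRP19, which belongs to the particle that brings ribosomes to the ER, rose by 0.97, with 18.15% of its exon bases overlapping other genes. Of 34 coat proteins and cargo receptors, 23 rose and 0 fell, with a median of 0.36. SEC24D, which selects cargo for COPII vesicles leaving the ER, had 47.9, 34.5 and 34.997 CPM in vehicle and 97.2, 83.8 and 74.6 CPM with R1881 (log2 fold change 1.12 ± 0.16, edgeR adjusted p = 1.29e-05). The GTPase SAR1B, which starts the COPII coat, had 155, 126 and 123 CPM in vehicle and 229, 214 and 236 CPM with R1881 (log2 fold change 0.75 ± 0.10, edgeR adjusted p = 3.24e-06), and KDELR2, a receptor that returns escaped ER proteins, had 269.9, 205 and 201 CPM in vehicle and 434, 352 and 377 CPM with R1881 (log2 fold change 0.78 ± 0.10, edgeR adjusted p = 5.24e-06). All 3 were higher in each R1881 library.

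Sugar donors for glycosylation followed. Of 20 genes of nucleotide sugar and hexosamine synthesis, 11 rose and 0 fell, with a median of 0.38. UAP1, which makes UDP-N-acetylglucosamine, had 139, 139.7 and 121 CPM in vehicle and 507, 455 and 503 CPM with R1881. R1881 libraries were more than 3 times as high as any vehicle library (log2 fold change 1.87 ± 0.09, edgeR adjusted p = 1.07e-12). PGM3, which acts one step earlier, rose by 0.87, and GNPNAT1, the acetyltransferase before it, by 0.61, with 35.57% of its exon bases shared with other genes. The O-glycosylation enzymes split, with 4 of 21 higher and 4 lower. ST6GALNAC1, which adds the sialic acid of the sialyl-Tn antigen, had 2.30, 1.87 and 2.22 CPM in vehicle and 87.2, 49.97 and 45.8 CPM with R1881, with no overlap (log2 fold change 4.83 ± 0.24, edgeR adjusted p = 2.52e-12). ST6GALNAC4, a related sialyltransferase, had 35.2, 32.4 and 36.1 CPM in vehicle and 16.9, 12.9 and 12.9 CPM with R1881 and fell (log2 fold change -1.29 ± 0.12, edgeR adjusted p = 5.16e-08), as did GALNT10, which starts O-glycans (-0.96 ± 0.13), and ST3GAL1.

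RAB GTPases steer vesicles to their targets, and 17 of 54 tested rose and 9 fell, with a median of 0.12. RAB3B, a RAB of regulated secretion, had 26.2, 29.2 and 29.3 CPM in vehicle and 139, 159.5 and 105 CPM with R1881 (log2 fold change 2.25 ± 0.18, edgeR adjusted p = 3.48e-09). RAB27A, which docks secretory vesicles, had 11.01, 9.62 and 8.79 CPM in vehicle and 34.5, 28.4 and 24.9 CPM with R1881 (log2 fold change 1.57 ± 0.16, edgeR adjusted p = 1.22e-07), and RAB4A, of recycling endosomes, rose by 1.68, with 19.58% of its exon bases overlapping other genes. RAB19 moved the other way, at 7.36, 10.7 and 6.53 CPM in vehicle and 1.95, 1.42 and 1.23 CPM with R1881 (log2 fold change -2.42 ± 0.26, edgeR adjusted p = 2.91e-07). In each of these genes the 2 groups were separate, which their selection required.

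**Figure D3:**
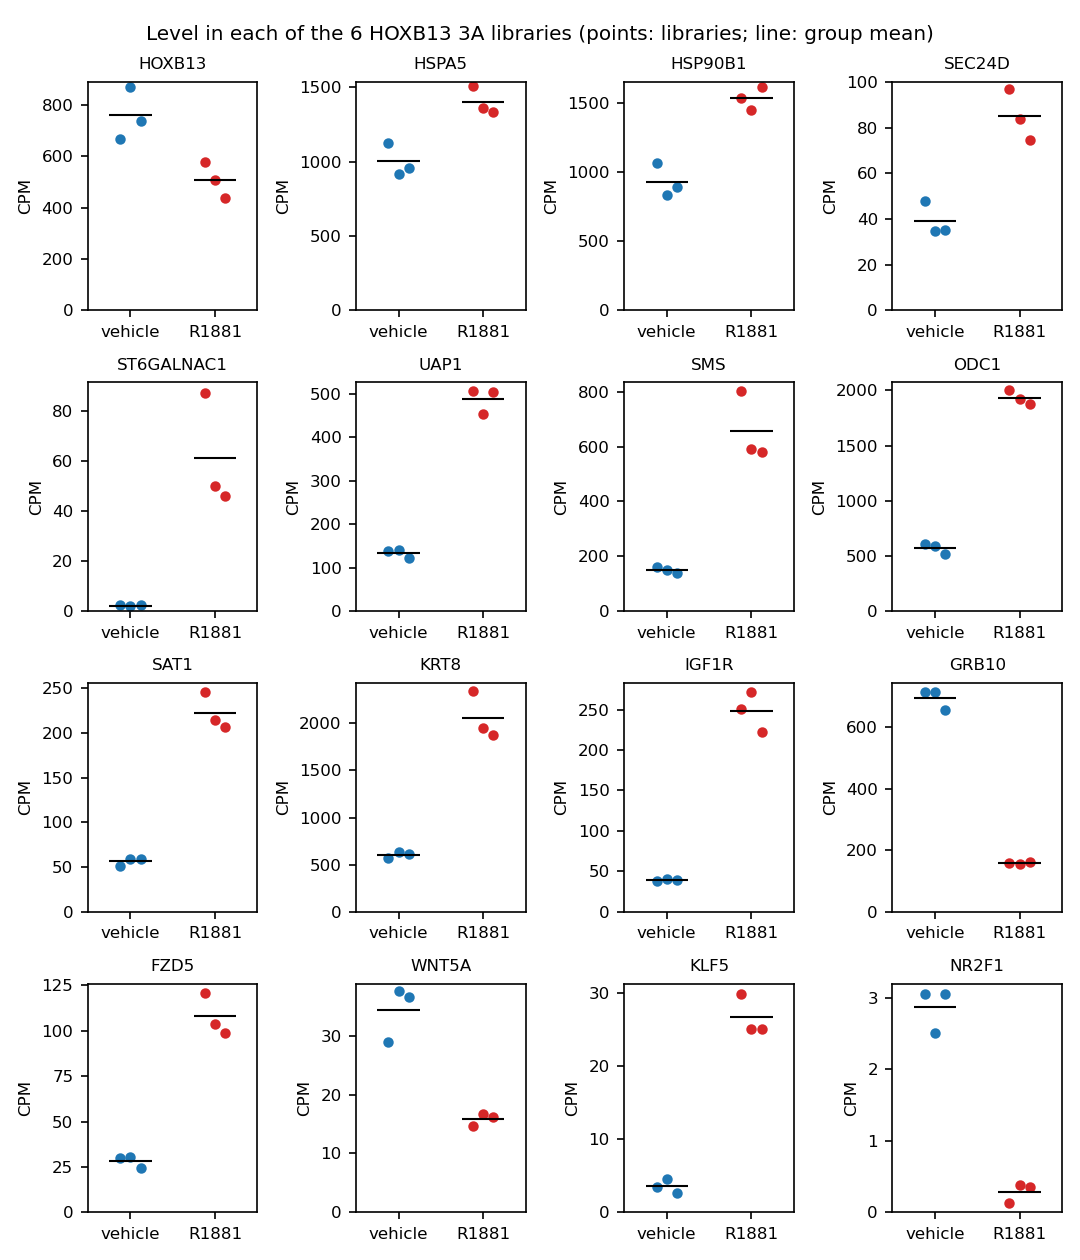
Level in CPM (y axis, from 0) of 16 genes in each of the 3 vehicle libraries (blue) and 3 R1881 libraries (red) with HOXB13 3A rescue, with the group mean as a line. HOXB13, GRB10, WNT5A and NR2F1 were lower and the other 12 genes higher with R1881, without overlap.

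Transporter families moved in both directions. ABC transporters, which pump lipids and other small molecules across membranes with ATP, were called higher in 6 and lower in 8 of 31. Without vehicle library 3, 3 were called higher, and without vehicle library 3, 5 were called lower, and without R1881 library 3, 4 were called lower. ABCC4, an exporter of cyclic nucleotides and prostaglandins, had 257, 201 and 227 CPM in vehicle and 924, 1001 and 879 CPM with R1881 (log2 fold change 2.03 ± 0.13, edgeR adjusted p = 1.46e-10), and ABCC1, an exporter of glutathione conjugates, rose by 1.44. The lipid transporters ABCA1 and ABCA12 fell. ABCA12 had 166, 144 and 174 CPM in vehicle and 14.9, 19.2 and 25.7 CPM with R1881 (log2 fold change -3.02 ± 0.17, edgeR adjusted p = 1.05e-11), and ABCA1 had 6.98, 7.07 and 9.22 CPM in vehicle and 0.31, 0.104 and 0 CPM with R1881 (log2 fold change -5.87 ± 0.48, edgeR adjusted p = 4.13e-09). ABCC4 and ABCA1 also stand on the classic androgen lists. Potassium channel subunits were called higher in 4 and lower in 9 of 38. The calcium-activated channel KCNN2 had 50.7, 70.4 and 54.95 CPM in vehicle and 204, 257 and 229 CPM with R1881 (log2 fold change 1.97 ± 0.16, edgeR adjusted p = 3.91e-09), while the modifier subunits KCNG1 (-1.47 ± 0.10) and KCNS3 (-1.72 ± 0.15) fell. Each of these genes differed without overlap between the treatments, which their selection required.

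Zinc, which prostate cells accumulate, is moved by SLC39 importers and SLC30 exporters, of which 4 of 19 rose and 2 fell. 1 was called lower without vehicle library 2 or R1881 library 1. SLC39A10, an importer of the plasma membrane, had 49.5, 43.4 and 43.2 CPM in vehicle and 157, 149 and 153 CPM with R1881 (log2 fold change 1.76 ± 0.18, edgeR adjusted p = 1.44e-07). SLC30A7, which loads zinc into the Golgi, rose by 0.71, and SLC39A7, which releases it from the ER, by 0.53. SLC30A4, which loads vesicles, was called lower (-0.40 ± 0.12) in 4 of the 6 fits without 1 library. Of 42 SLC25 carriers of the inner mitochondrial membrane, 10 rose and 2 fell. Without vehicle library 1 or 2 or 3 or R1881 library 1 or 2, 1 was called lower. They included the pyrimidine nucleotide carrier SLC25A33 (1.07 ± 0.09), the carnitine carrier SLC25A20 (0.89 ± 0.12) and the iron importer SLC25A37 (0.84 ± 0.12), all higher, and SLC25A17 of peroxisomes (-0.47 ± 0.10), lower. SLC25A33 shares 17.08% of its sequence with other genes.

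Polyamines, which prostate tissue makes in quantity, come from ornithine through ODC1, SRM and SMS, with AMD1 supplying the aminopropyl groups. Of 22 genes of this pathway, 8 rose and 0 fell. 5 were called higher without vehicle library 3 or R1881 library 3. ODC1, the rate-limiting decarboxylase (chromosome 2, 10439968 to 10448504, minus strand), had 609, 591 and 518 CPM in vehicle and 2000.00, 1926 and 1879.7 CPM with R1881. SMS, spermine synthase, had 159, 151 and 138 CPM in vehicle and 802, 589.99 and 579.9 CPM with R1881, and SAT1, which acetylates polyamines for breakdown and export, had 51.003, 59.2 and 58.8 CPM in vehicle and 246, 214 and 207 CPM with R1881. All 3 were more than 2-fold higher without overlap, with log2 fold changes of 1.76 ± 0.09, 2.14 ± 0.13 and 1.98 ± 0.11 and edgeR adjusted p of 5.56e-12, 4.09e-11 and 1.34e-11. AMD1 (0.50 ± 0.12) rose by less, and so did SRM (0.44 ± 0.13), whose call was kept in 4 of 6 fits without 1 library. Both were chosen after their values were seen. SMS shares 21.54% of its sequence with other genes.

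Fatty acid oxidation did not move as a block: 9 of 29 genes rose and 4 fell, with a median of 0.04. Without R1881 library 2, 2 were called lower. Those that rose included genes that act on peroxisomal substrates. CROT, which exports shortened chains from peroxisomes as carnitine esters, had 20.2, 16.2 and 12.4 CPM in vehicle and 46.4, 35.5 and 38.8 CPM with R1881 (log2 fold change 1.30 ± 0.16, edgeR adjusted p = 2.39e-06), and HSD17B4, the peroxisomal bifunctional enzyme, had 285, 269.8 and 269 CPM in vehicle and 414, 403 and 436 CPM with R1881 (log2 fold change 0.60 ± 0.08, edgeR adjusted p = 2.77e-06). ECI2, an enoyl-CoA isomerase, rose by 1.28, with 29.81% of its exon bases overlapping other genes, and CRAT, carnitine acetyltransferase, fell (-0.83 ± 0.09). Redox enzymes of the glutathione and thioredoxin systems were near the background, with 3 of 28 higher and 3 lower. 1 was called lower without vehicle library 2 or R1881 library 2. The risers were glutathione reductase GSR (0.71 ± 0.10), PRDX6 (0.64 ± 0.10) and PRDX4, the peroxiredoxin of the ER (0.54 ± 0.10), and GSTK1 fell (-0.53 ± 0.09). Cytochrome P450 genes were called higher in 4 and lower in 4 of 23. CYP2U1, a fatty acid hydroxylase, had 32.3, 27.96 and 27.4 CPM in vehicle and 211, 155 and 143 CPM with R1881 (log2 fold change 2.54 ± 0.14, edgeR adjusted p = 1.39e-11), and CYP1A1, a target of the aryl hydrocarbon receptor, had 4.37, 3.29 and 3.29 CPM in vehicle and 9.30, 11.8 and 14.5 CPM with R1881 (log2 fold change 1.70 ± 0.22, edgeR adjusted p = 3.38e-06). CYP39A1, an oxysterol hydroxylase (-0.76 ± 0.15), and CYP4V2, a fatty acid hydroxylase (-0.40 ± 0.09), fell.

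Families of protein synthesis and breakdown in the cytosol and mitochondria had few called members. Proteasome subunits were called higher in 3 of 35, aminoacyl-tRNA synthetases in 3 of 20 and mitochondrial ribosomal proteins in 7 of 77, with 0, 0 and 2 lower. For proteasome subunits the higher count was 6 without vehicle library 1 and 8 without R1881 library 2. For synthetases it was 1 without vehicle library 3. PSMD8, of the proteasome lid, had 196, 225 and 199.6 CPM in vehicle and 395, 337 and 360.4 CPM with R1881 (log2 fold change 0.81 ± 0.11, edgeR adjusted p = 5.06e-06), and the aspartate synthetase DARS rose by 0.50. MRPS27 (-0.46 ± 0.09) fell and MRPL42 (0.49 ± 0.10) rose. Lysosomal genes were called higher in 13 and lower in 5 of 52. Without vehicle library 2 or R1881 library 3, 3 were called lower. NPC1, which moves cholesterol out of lysosomes, had 85.5, 66.5 and 78.98 CPM in vehicle and 206, 239 and 205 CPM with R1881 (log2 fold change 1.49 ± 0.15, edgeR adjusted p = 7.48e-08). Proton pump subunits ATP6V1C1 (0.68 ± 0.09) and ATP6V0A2 (0.75 ± 0.10) rose, and the mannosidase MANBA (-1.10 ± 0.14) fell. Core autophagy genes were called higher in 4 and lower in 1 of 32. 8 were called higher without vehicle library 1, and 2 were called higher without vehicle library 3, and 7 were called higher without R1881 library 2, and 0 were called lower without vehicle library 2 or 3 or R1881 library 3. WIPI1, which marks forming autophagosomes, had 10.9, 9.92 and 11.2 CPM in vehicle and 36.4, 33.4 and 34.5 CPM with R1881 (log2 fold change 1.70 ± 0.12, edgeR adjusted p = 6.1e-10), with 28.07% of its exon bases overlapping other genes. The lower one, the cargo receptor SQSTM1 (-0.27 ± 0.08), was called in 3 of 6 fits without 1 library and shares 22.04% of its exon bases with other genes.

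The insulin and IGF pathway held large changes in both directions, 6 higher and 6 lower of 22. IGF1R, the receptor, had 38.05, 40.7 and 39.04 CPM in vehicle and 251, 271 and 222 CPM with R1881, a 6.32-fold rise without overlap (log2 fold change 2.66 ± 0.12, edgeR adjusted p = 4.95e-13). IRS2, the adaptor that carries its signal, had 5.28, 6.47 and 7.48 CPM in vehicle and 23.2, 24.7 and 17.4 CPM with R1881 (log2 fold change 1.77 ± 0.18, edgeR adjusted p = 1.59e-07) and was picked with its values in view. GRB10, which restrains the receptor, had 716, 713 and 655 CPM in vehicle and 158, 154 and 161 CPM with R1881 (log2 fold change -2.14 ± 0.10, edgeR adjusted p = 4.41e-13). Regulatory subunits of PI3-kinase were lower: PIK3R3 had 229, 199.96 and 212 CPM in vehicle and 86.4, 87.9 and 88.9 CPM with R1881 (log2 fold change -1.28 ± 0.08, edgeR adjusted p = 9e-11), with 22.25% of its sequence shared with other genes, and PIK3R1, chosen after its values were seen, fell by 0.67. INPP4B, a phosphatase that removes a product of PI3-kinase, had 3.80, 2.47 and 2.97 CPM in vehicle and 26.4, 27.02 and 17.98 CPM with R1881 (log2 fold change 2.94 ± 0.25, edgeR adjusted p = 9.75e-09). Receptor and phosphatase were thus higher and the adaptor GRB10 lower in each R1881 library.

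Wnt ligands signal through Frizzled receptors, with or without beta-catenin. Of 32 genes of the pathway, 5 rose and 16 fell, with a median of -0.47. Without vehicle library 3, 10 were called lower. The receptor FZD5 had 30.2, 30.4 and 24.4 CPM in vehicle and 121, 104 and 98.9 CPM with R1881 (log2 fold change 1.93 ± 0.14, edgeR adjusted p = 7.74e-10) and the ligand WNT7B had 52.5, 52.7 and 49.7 CPM in vehicle and 182, 159 and 143 CPM with R1881 (log2 fold change 1.64 ± 0.12, edgeR adjusted p = 1.37e-09). WNT5A, a ligand of the beta-catenin independent branch, had 28.9, 37.6 and 36.5 CPM in vehicle and 14.7, 16.6 and 16.1 CPM with R1881 (log2 fold change -1.12 ± 0.14, edgeR adjusted p = 2.18e-06). ROR2, a receptor of WNT5A, had 0.723, 1.91 and 1.07 CPM in vehicle and 0.0443, 0.104 and 0.108 CPM with R1881 (log2 fold change -3.73 ± 0.62, edgeR adjusted p = 8.42e-05). LEF1, a transcription factor partner of beta-catenin (-1.15 ± 0.22), and NKD2, an inhibitor of Dishevelled (-1.39 ± 0.28), fell too. ROR2 and LEF1 were chosen after their values were seen. FZD5 and WNT7B were thus high, and WNT5A and ROR2 low, in every R1881 library.

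Further receptor systems were mixed. The Notch pathway had 6 higher and 5 lower of 27. 3 were called lower without vehicle library 3 or R1881 library 3, and 2 were called lower without R1881 library 1. HES6, a repressor of the HES family, had 80.8, 109.8 and 102 CPM in vehicle and 315, 354 and 300.5 CPM with R1881 (log2 fold change 1.73 ± 0.12, edgeR adjusted p = 4.84e-10). Of 18 ephrins and Eph receptors, 2 rose and 6 fell. Without vehicle library 2 or 3 or R1881 library 2 or 3, 1 was called higher. The ligand EFNA5 had 88.99, 78.7 and 82.8 CPM in vehicle and 229, 224 and 192 CPM with R1881 (log2 fold change 1.36 ± 0.13, edgeR adjusted p = 6.13e-08), while the receptors EPHA3 (-1.04 ± 0.25), EPHA2 (-0.93 ± 0.16) and EPHA1 (-0.61 ± 0.12) fell. Semaphorins, plexins and neuropilins, which guide cell movement, were called higher in 1 and lower in 5 of 24. 2 were called higher without vehicle library 3, and 3 were called lower without vehicle library 2 or R1881 library 1. SEMA4A rose (0.65 ± 0.08), and SEMA6A (-1.40 ± 0.19) and SEMA3G (-0.87 ± 0.23) fell. TNF ligands and receptors had 4 higher and 5 lower of 17. TNFRSF10B, the death receptor DR5, had 165, 161 and 161 CPM in vehicle and 420.3, 390.3 and 337 CPM with R1881 (log2 fold change 1.23 ± 0.09, edgeR adjusted p = 6.56e-10), and TNFSF15, a cytokine that restrains vessel growth, had 52.04, 40.1 and 48.8 CPM in vehicle and 5.05, 5.90 and 6.82 CPM with R1881 (log2 fold change -2.98 ± 0.16, edgeR adjusted p = 6.09e-12). TNFRSF21 (-1.37 ± 0.12) and TNFRSF12A (-1.08 ± 0.18) fell as well. Of 30 chemokine and interleukin genes, 5 rose and 6 fell, with the receptor subunits IL20RA (1.72 ± 0.31), IL1R1 (0.66 ± 0.12) and IL6R (0.71 ± 0.15) among the former.

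Inside the cell, cyclic nucleotide phosphodiesterases were called higher in 2 and lower in 1 of 11. PDE4D, which breaks down cAMP, had 14.3, 11.5 and 14.7 CPM in vehicle and 2.97, 3.30 and 3.10 CPM with R1881 (log2 fold change -2.11 ± 0.16, edgeR adjusted p = 1.09e-09), and PDE9A, which breaks down cGMP, had 25.7, 26.6 and 24.3 CPM in vehicle and 55.5, 59.5 and 62.5 CPM with R1881 (log2 fold change 1.21 ± 0.09, edgeR adjusted p = 6.56e-10). Both pairs of groups were separate, in opposite directions. MAP kinase phosphatases and Sprouty proteins, which damp growth factor signalling, were called higher in 2 and lower in 4 of 16. Without R1881 library 1, 2 were called lower. DUSP4 (0.74 ± 0.16) and SPRED2 (0.44 ± 0.11) rose, and DUSP5 (-0.95 ± 0.25) and DUSP16 (-0.47 ± 0.11) fell.

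Keratins form the intermediate filaments of epithelial cells, and tight junctions seal neighbouring cells together. Of 10 keratins tested, 6 rose and 2 fell, with a median of 1.58. 1 was called lower without vehicle library 2 or R1881 library 1. KRT18, the partner of KRT8 in luminal cells, had 315, 353 and 343 CPM in vehicle and 954, 816 and 902 CPM with R1881 (log2 fold change 1.40 ± 0.13, edgeR adjusted p = 5.15e-08), with 16.31% of its exon bases overlapping other genes. KRT80 had 4.94, 3.85 and 4.39 CPM in vehicle and 0.709, 0.729 and 0.469 CPM with R1881 and fell (log2 fold change -2.79 ± 0.34, edgeR adjusted p = 1.52e-06). Tight junction genes were called higher in 3 and lower in 5 of 19. OCLN, occludin, had 119, 114 and 109 CPM in vehicle and 33.6, 43.9 and 48.6 CPM with R1881 (log2 fold change -1.44 ± 0.14, edgeR adjusted p = 4.82e-08), and MARVELD2, tricellulin (-0.58 ± 0.10), and the scaffold TJP3 (-0.70 ± 0.13) fell. The claudin CLDN8 had 7.89, 6.70 and 6.45 CPM in vehicle and 20.5, 16.5 and 18.3 CPM with R1881 and rose (log2 fold change 1.39 ± 0.14, edgeR adjusted p = 8.96e-08). Cadherins and protocadherins were called higher in 2 and lower in 6 of 47: PCDH1 rose (0.98 ± 0.11) and CDH26 had 14.9, 13.4 and 22.2 CPM in vehicle and 1.46, 2.12 and 1.52 CPM with R1881 and fell (log2 fold change -3.30 ± 0.25, edgeR adjusted p = 1.37e-09).

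Contacts with the matrix changed member by member. One integrin of 19 rose and 5 fell, with a median of -0.47. ITGAV, which pairs with several beta chains to bind RGD motifs, had 137, 97.9 and 110.3 CPM in vehicle and 273, 255 and 228 CPM with R1881 (log2 fold change 1.13 ± 0.17, edgeR adjusted p = 3.88e-05). The collagen and laminin receptor chains ITGA1 (-1.66 ± 0.33), ITGA2 (-1.35 ± 0.27) and ITGA3 (-0.92 ± 0.19) fell. Collagens and laminins were called higher in 7 and lower in 8 of 28. LAMA1, a laminin alpha chain, had 0.346, 0.262 and 0.396 CPM in vehicle and 16.1, 11.7 and 9.10 CPM with R1881 (log2 fold change 5.18 ± 0.33, edgeR adjusted p = 9.11e-11), and LAMC1, a gamma chain, had 278, 264 and 279 CPM in vehicle and 506, 575 and 505 CPM with R1881 (log2 fold change 0.95 ± 0.11, edgeR adjusted p = 1.31e-06). COL5A2 had 14.8, 15.9 and 15.7 CPM in vehicle and 1.73, 2.26 and 1.01 CPM with R1881 (log2 fold change -3.21 ± 0.23, edgeR adjusted p = 5.14e-10), and COL9A2 fell by 1.81. ADAM, ADAMTS and MMP proteases were called higher in 6 and lower in 8 of 28. Without vehicle library 3 or R1881 library 1, 5 were called lower, and without R1881 library 3, 4 were called lower. ADAM9, a sheddase, had 392, 318 and 297 CPM in vehicle and 670.4, 615 and 577 CPM with R1881 (log2 fold change 0.89 ± 0.14, edgeR adjusted p = 4.08e-05), and MMP16, a membrane-bound metalloprotease, had 227, 238 and 249 CPM in vehicle and 57.7, 87.8 and 114 CPM with R1881 (log2 fold change -1.45 ± 0.18, edgeR adjusted p = 2.82e-06). All of the genes given here by library were separate between treatments, which their selection required.

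Of 32 nuclear receptor genes on the list, 6 rose and 13 fell, with a median of -0.32. 2 were called higher without vehicle library 3, and 3 were called higher without R1881 library 1, and 8 were called lower without R1881 library 1 or 3. NR4A1, an immediate early orphan receptor, had 11.7, 10.7 and 10.8 CPM in vehicle and 36.3, 42.7 and 30.4 CPM with R1881 (log2 fold change 1.72 ± 0.12, edgeR adjusted p = 4.3e-10). NR2F1, the orphan receptor COUP-TF1, had 3.05, 2.51 and 3.05 CPM in vehicle and 0.133, 0.382 and 0.361 CPM with R1881 (log2 fold change -3.24 ± 0.47, edgeR adjusted p = 1.76e-05). PGR, the progesterone receptor, chosen after its values were seen, went from 111 counts to 3, a ratio of 34.9 (exact 95% counting interval 11.6 to 172). The retinoic acid receptor RARA (-0.84 ± 0.16) and the thyroid hormone receptor THRA (-0.62 ± 0.11) fell. RARA shares 17.9% of its exon bases with other genes.

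Of 14 KLF transcription factor genes, 4 rose and 2 fell. Without vehicle library 2 or 3 or R1881 library 1 or 3, 1 was called lower. KLF5, a factor of proliferating epithelium, had 3.52, 4.57 and 2.65 CPM in vehicle and 29.9, 25.003 and 25.1 CPM with R1881 (log2 fold change 2.89 ± 0.20, edgeR adjusted p = 2.46e-10), and KLF4, of differentiating epithelium, had 5.38, 6.32 and 4.75 CPM in vehicle and 20.1, 27.99 and 18.2 CPM with R1881 (log2 fold change 2.01 ± 0.18, edgeR adjusted p = 2.62e-08). KLF15, a known glucocorticoid target, had 13.8, 12.9 and 13.2 CPM in vehicle and 41.6, 43.8 and 49.3 CPM with R1881 (log2 fold change 1.75 ± 0.11, edgeR adjusted p = 6.92e-11). Of 25 forkhead genes, 3 rose and 4 fell. 2 were called lower without vehicle library 3. FOXO1 (0.78 ± 0.15) and FOXO3 (0.73 ± 0.12, with 25.87% of its sequence shared with other genes) rose, and FOXN4 had 3.52, 4.34 and 5.90 CPM in vehicle and 0.354, 0.417 and 0.397 CPM with R1881 and fell (log2 fold change -3.53 ± 0.38, edgeR adjusted p = 2.96e-07). Of 8 SOX genes, 0 rose and SOX8 fell (-1.05 ± 0.15). Without vehicle library 1, 2 were called lower, and without R1881 library 2, 3 were called lower.

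Clock genes had 2 higher and 4 lower of 23. 2 were called lower without vehicle library 2 or R1881 library 1. PER1, which represses the clock activators, had 8.33, 12.9 and 12.2 CPM in vehicle and 42.1, 44.1 and 40.2 CPM with R1881 (log2 fold change 1.92 ± 0.15, edgeR adjusted p = 3.69e-09). BHLHE40, another repressor, had 24.97, 36.7 and 31.4 CPM in vehicle and 102, 92.8 and 78.7 CPM with R1881 and rose (log2 fold change 1.56 ± 0.15, edgeR adjusted p = 6.14e-08), while its close relative BHLHE41 fell (-1.9999 ± 0.41), as did NR1D1, the repressor REV-ERB alpha (-0.71 ± 0.18). Chromatin and zinc finger families lay at or below the background. Lysine demethylases and TET enzymes had 3 higher and 3 lower of 25. Without R1881 library 3, 1 was called lower. KDM6A, which removes a repressive histone methyl mark, had 370.3, 316 and 313 CPM in vehicle and 152, 189 and 159.5 CPM with R1881 (log2 fold change -0.9995 ± 0.13, edgeR adjusted p = 5.32e-06). KDM4B rose (0.51 ± 0.10). Replication-dependent histone genes had 1 higher and 3 lower of 39. 2 were called higher without vehicle library 1, and 4 were called higher without R1881 library 2, and 1 was called lower without vehicle library 1. Of 452 genes named ZNF, 20 rose and 31 fell. Without vehicle library 2, 11 were called higher, and without vehicle library 3 or R1881 library 3, 19 were called lower. ZNF385B had 25.6, 16.1 and 15.4 CPM in vehicle and 106, 85.1 and 72.2 CPM with R1881 (log2 fold change 2.20 ± 0.22, edgeR adjusted p = 1.07e-07), and ZNF703, a transcriptional corepressor, had 108, 127 and 121 CPM in vehicle and 37.9, 38.5 and 32.96 CPM with R1881 (log2 fold change -1.71 ± 0.09, edgeR adjusted p = 9.93e-12).

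For reference, 46 of 49 tested genes of a list of classic androgen-induced genes rose and 0 fell, with a median of 3.42, and 12 of 18 of a list of androgen-repressed genes fell and 3 rose, with a median of -1.98. FKBP5 had 81.4, 75.7 and 68.9 CPM in vehicle and 1915, 1833 and 1677 CPM with R1881 and OPRK1, an opioid receptor, 46.3, 57.6 and 48.02 CPM in vehicle and 1.77, 3.40 and 4.44 CPM with R1881. These lists were drawn up from known androgen targets and their direction is not a separate finding.

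The same contrast in the other rescue states used other libraries, fitted in the same model. With empty vector 2270 genes rose and 2064 fell, and with wild-type HOXB13 1882 rose and 1568 fell. Of the genes that rose with 3A, 73.8% also rose with EV, which is 69.3% of the EV list, and 62.7% with WT, which is 70.9% of the WT list. Of those that fell with 3A, 67% also fell with EV (67.2% of that list) and 54.1% with WT (71.4%). A call in one state and not in another does not show a difference. Of 1240 genes called with 3A and not with EV, 1 differed in the test of the difference itself, and of 1745 called with 3A and not with WT, 0 did. The median response of the ER chaperone list was 0.59 with EV and 0.32 with WT, and 0 of its members differed between 3A and either state.

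Tested directly, the response with 3A differed from that with EV in 2 genes (0.0117% of those tested) and from that with WT in 10 (0.0583%). At an unadjusted p under 0.05 the numbers were 1072 and 1642, and DESeq2 called 8 and 81. HOXB13 RNA in vehicle stood at 759 ± 102 CPM (SD, n = 3) with 3A, 536 ± 50.2 with WT and 533 ± 33.9 with EV. With R1881 it stood at 507 ± 71.0, 347 ± 26.2 and 416 ± 9.87. Allele and HOXB13 RNA level thus differ together between 3A and WT and cannot be told apart here. Against WT, ERRFI1, a feedback inhibitor of the EGF receptor, and ODC1 were called in all 12 fits that left out 1 library of 3A or WT. Of these, ERRFI1 stands on the list of classic androgen-induced genes. ERRFI1 had 34.97, 38.2 and 35.6 CPM in vehicle and 463, 494 and 451 CPM with R1881, a log2 fold change of 3.69 with 3A against 2.59 with WT and 3.22 with EV. The difference to WT was 1.10 ± 0.15 (edgeR adjusted p = 0.00478). For ODC1 the responses were 1.76 with 3A, 0.89 with WT and 1.43 with EV, and the difference to WT was 0.87 ± 0.13 (edgeR adjusted p = 0.01). In vehicle ODC1 stood at 573 ± 48.2 CPM (SD, n = 3) with 3A and 638 ± 35.9 with WT, and with R1881 at 1935 ± 60.6 and 1183 ± 76.9.

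BVES, a membrane protein that binds cAMP, had 17.3, 22.3 and 16.3 CPM in vehicle and 1.51, 2.08 and 3.50 CPM with R1881 with 3A, a fall of 2.96 on the log2 scale. Its response with EV was -0.01 and with WT -2.85, and the difference between 3A and EV was -2.95 ± 0.41 (edgeR adjusted p = 0.00788). In vehicle BVES stood at 18.6 ± 3.20 CPM (SD, n = 3) with 3A, 2.39 ± 0.996 with EV and 91.05 ± 22.6 with WT, and with R1881 at 2.36 ± 1.03, 2.35 ± 0.494 and 12.6 ± 1.67. The EV level in vehicle lay near the level with 3A and R1881. The call was lost without EV R1881 library 2 (edgeR adjusted p = 0.0922). NUCB2, the precursor of the peptide nesfatin, had 184, 195 and 150.1 CPM in vehicle and 173, 143 and 174 CPM with R1881, overlapping groups with a log2 fold change of -0.11 ± 0.12 (edgeR adjusted p = 0.574). With WT it fell by 1.24, and the difference of 1.13 ± 0.17 (edgeR adjusted p = 0.01) was lost without WT vehicle library 2 (edgeR adjusted p = 0.0555). The other 8 genes lost the call without several single libraries.

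**Figure D4:**
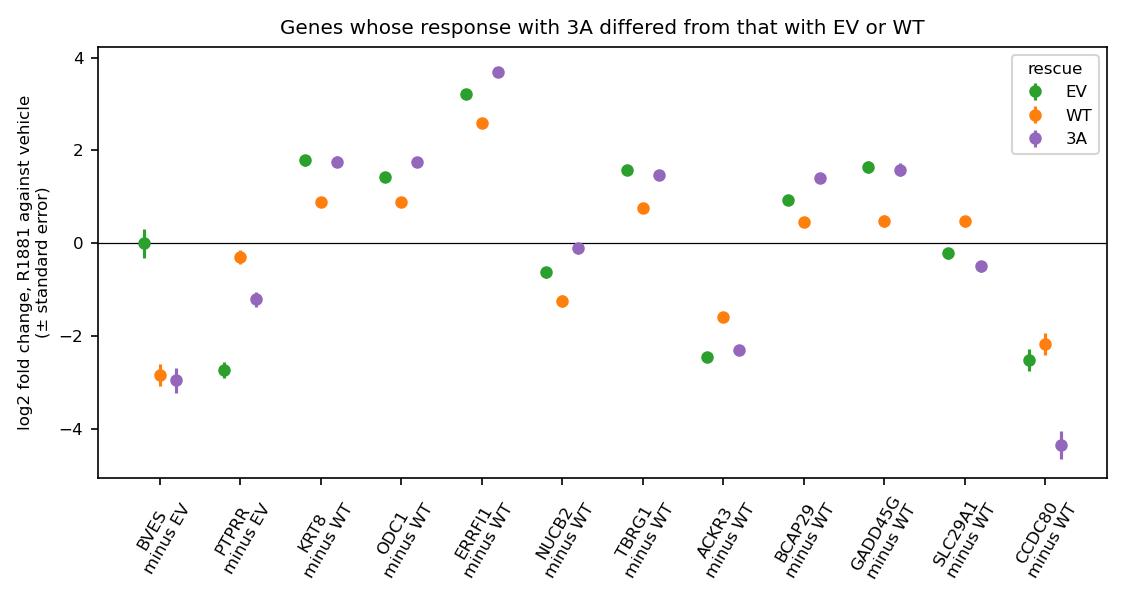
Log2 fold change ± standard error for R1881 against vehicle (y axis) with EV (green), WT (orange) and 3A (purple) for the 12 genes whose response with 3A differed from that with EV or WT, as named under each gene. ERRFI1 and ODC1 rose in all 3 states, and BVES fell by 2.96 with 3A and by 2.85 with WT and stood at -0.01 with EV.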

How the data were processed

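RNA of 18 LNCaP libraries was sequenced as read pairs from total RNA, per the labels' protocols, and the titles gave each library's rescue state and treatment, 3 libraries per group. The authors deposited whole read counts for 58735 genes. FPKM values of the authors, deposited beside them, entered no test. Alignment and counting tools, per the submitters' processing notes, include featureCounts 1.5.0-p3 and HISAT2 2.0.5, with the build hg38. Annotation release, strand setting and handling of multiply mapped reads were not given in the sources used here, and genes that overlap others or share sequence with them are marked as uncertain.

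The deposited counts entered edgeR 4.0.16 (R 4.3.3) unchanged. Low genes were dropped with filterByExpr (at least 10 counts, and 15 in total), which left 17162. After TMM scaling, 1 quasi-likelihood model with a mean for each of the groups took in all 18 libraries, at 12 residual degrees of freedom and a common dispersion of 0.0186. Benjamini-Hochberg adjustment ran over all 17162 genes, and values under 0.05 were called. CPM use the TMM-scaled library size. Differences between rescue states are interaction terms of the same model. Ratios on 3 or fewer counts have exact binomial intervals at 95%, which cover counting error only. Overlap of exons was counted on either strand. Shared sequence was counted between the longest transcript of a gene and the longest transcripts of other genes in the reference annotation, so other isoforms are not covered.

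The comparison, the 43 families, the 2 classic lists and the marker lists were chosen with earlier results of these data known. The pattern for RAB genes was corrected after the values were seen, to leave out genes that are not GTPases. Named genes follow a rule. HOXB13 is given. Among called genes with a mean of at least 1 CPM, no overlap between treatments and no place on the classic lists, the rule takes the 12 largest rises and 12 largest falls of protein-coding genes, the 6 largest gains and 6 largest losses in CPM, and 5 long noncoding RNAs each way. For each interaction it takes 4 genes each way by p, and for each family the largest rise and fall and up to 2 further members by p. Genes outside the rule are marked as chosen after their values were seen, except the classic genes FKBP5 and OPRK1 and the markers, which come from fixed lists. The results of 1 family and 1 further gene are not reported here.

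As alternatives, each library was left out in turn, the fit was limited to the 6 libraries of 3A, the replicate number served as a block, RLE replaced TMM, DESeq2 1.42.0 replaced edgeR, and the filter was dropped or set to 1 CPM in 3 libraries. The procedure was tested on simulated counts of 16740 genes. For R1881 against vehicle with 3A, it recovered 23 of 67 genes made 1.5-fold different, 50 of 67 at 2-fold and 57 of 66 at 4-fold, and made 8 false calls. For the difference between 3A and WT the numbers were 8, 36 and 49, with 3 false calls. For R1881 against vehicle, far fewer genes were changed in the simulation than the 4202 called in the data. The adjusted threshold was therefore stricter there, and the recovery rates do not carry over to the data. Promoter windows are those of RefSeq on GRCh38.p14.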

Additional observations from a re-analysis of the deposited data

Results flagged for a closer look

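The response to R1881 differed between rescue states, by the interaction test of edgeR, in 12 genes. Between 3A and EV the log2 difference was -2.95 for BVES and 1.53 for PTPRR, a receptor tyrosine phosphatase that fell in both states, by 1.21 with 3A and by 2.74 with EV. Between 3A and WT the response was larger with 3A by 0.87 for KRT8, 0.87 for ODC1, 1.10 for ERRFI1, 0.70 for TBRG1, 0.94 for BCAP29, an ER membrane chaperone, and 1.11 for GADD45G, a stress-inducible growth regulator. All 6 were called higher with 3A. With EV the responses of KRT8 (1.79), TBRG1 (1.58) and GADD45G (1.64) stood at or above those with 3A (1.76, 1.46 and 1.59), and those of ODC1, ERRFI1 and BCAP29 lay between those with WT and 3A. For NUCB2, which was not called with 3A and fell with WT, the difference was 1.13. It was -0.72 for ACKR3, a scavenging chemokine receptor, and -2.17 for CCDC80, which fell in both states and more with 3A. ACKR3, which stands on the list of androgen-repressed genes, fell by 2.47 with EV and by 2.31 with 3A. For SLC29A1, a nucleoside transporter, the difference was -0.97. SLC29A1 was called lower with 3A (-0.50) and higher with WT (0.48). With 1 library left out at a time, KRT8 kept the call in 2 of 12 fits, TBRG1 in 3, BCAP29 in 7, GADD45G in 4, SLC29A1 in 6, ACKR3 in 1, CCDC80 in 1 and PTPRR in 5. TBRG1 shares 34.5% of its exon bases with other genes.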

How the results depend on the processing

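Over 12 alternatives the calls for R1881 against vehicle with 3A stayed within 1.5 times the main counts, at 1655 to 2281 genes higher and 1635 to 2196 lower, and the fall of HOXB13 kept its call. With the 6 libraries of 3A alone 1981 genes rose and 1685 fell. Of 242 named genes followed over these settings, 0 changed sign where the gene was called in the main fit or in the alternative. Sign changes of genes called in neither were not counted. The median over all genes tested went from -0.01 to 0.0005 with the 6 libraries of 3A alone. The differences between rescue states moved most. For 3A minus EV, 8 genes were called by DESeq2, 62 with no filter on low counts and 6 with the replicate block, and 0 to 6 when 1 library was left out, with 0 without EV R1881 library 2. For 3A minus WT the numbers were 81, 178 and 96, and 2 to 27 with 1 library left out, the extremes coming from leaving out WT vehicle library 2 and WT vehicle library 1. The cause was not tested. Same-numbered 3A libraries correlated in their deviations from the group means at 0.192, -0.0672 and 0.0174, and those of EV at 0.163, 0.198 and 0.163 and of WT at 0.283, -0.00803 and 0.28. Only the EV pairs were all above 0.1, so across the states compared the number was not taken as a pairing. With that number as a replicate block, 2119 genes rose and 1915 fell in the 6 libraries. Of 94 family counts, RLE size factors and DESeq2 moved 0 by over 1.5 times, the block 8 and leaving out a library 6 to 16. In simulated counts 1.5-fold changes were mostly missed, and some 2-fold and 4-fold changes were missed too. For R1881 against vehicle these rates do not carry over, since far fewer genes were changed there than were called in the data. A gene that was not called may still have changed.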
